A study of Homo sapiens with 6 samples.

Results

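The 10 genes described here encode HSF1, the transcription factor that switches on the heat shock response, and 9 heat shock proteins and co-chaperones that work mainly in the cytosol. They were taken by gene name from all 18244 genes measured, through probe sets whose platform annotation gives exactly 1 symbol, and each of the 10 had at least 1 such probe set. Between them they had 32 of the 49293 probe sets that were not controls. The samples came from A549, a long-established line of human lung adenocarcinoma, kept in RPMI-1640 medium with 10% serum. Lentivirus had brought in either a hairpin directed at MRPL35 (KD, 3 arrays) or a control hairpin (NC, 3 arrays). MRPL35 encodes a component of the mitochondrial ribosome, and by its title the study asks how its loss affects the survival and growth of lung cancer cells. Both groups carry a lentivirus, and the labels name neither the time after infection nor whether several hairpins or separate cultures were used, so the spread that the p-values rest on is that between these arrays and may be technical. All values are on the log2 scale, so that a difference of 1 is a 2-fold difference, and no scanner files were used, so values of dim probe sets are given as they stand.

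Cytosolic chaperones keep proteins folded while they are made and after heat or chemical stress. HSP70 proteins such as HSPA8 hold unfolded stretches of a protein, J-domain proteins such as DNAJB1 hand them their substrates, exchange factors such as HSPH1 release them, and HSP90 proteins finish the folding of kinases and receptors with the help of co-chaperones. Small heat shock proteins such as HSPB1, HSPB8 and CRYAB bind unfolding proteins without using ATP. In unstressed cells HSF1 is held inactive by chaperones. When unfolded proteins occupy those chaperones it forms trimers, which bind heat shock elements, inverted repeats of the unit GAA, in the promoters of chaperone genes. Because its activation needs no change in its own transcript, a level of HSF1 mRNA is not a reading of its activity.

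The promoters are shown because they bear on whether genes of the list carry the same regulatory element. RefSeq promoter windows of assembly GRCh38.p14, from 250 bases before to 50 after a transcription start, were found for 8 of the 10 genes. They numbered 13, since some genes have several starts. HSF1 and CRYAB had no window, so whether their promoters hold the element was not examined. They were searched on both strands for the 2-unit cores GAANNTTC and TTCNNGAA and for the 3-unit element, which is either core extended by NN and 1 more unit and so always contains both cores. The 250 bases before the start follow for 5 genes, 5′ to 3′ on the gene's own strand, with the bases of 3-unit elements in capitals.
CHORDC1, chr11:90223050-90223299, minus strand: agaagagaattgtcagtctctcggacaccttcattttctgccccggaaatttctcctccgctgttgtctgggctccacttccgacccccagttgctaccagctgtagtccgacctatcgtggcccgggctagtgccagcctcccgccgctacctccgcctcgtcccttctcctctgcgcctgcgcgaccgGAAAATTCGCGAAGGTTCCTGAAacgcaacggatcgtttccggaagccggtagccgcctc
HSPA8, chr11:123062137-123062386, minus strand: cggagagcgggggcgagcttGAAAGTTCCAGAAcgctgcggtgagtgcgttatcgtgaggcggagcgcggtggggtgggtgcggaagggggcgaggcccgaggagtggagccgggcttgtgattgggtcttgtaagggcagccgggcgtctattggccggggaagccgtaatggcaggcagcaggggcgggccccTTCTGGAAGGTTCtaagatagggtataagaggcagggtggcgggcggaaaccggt
HSP90AB1, start 3 of 3, chr6:44247693-44247942, plus strand: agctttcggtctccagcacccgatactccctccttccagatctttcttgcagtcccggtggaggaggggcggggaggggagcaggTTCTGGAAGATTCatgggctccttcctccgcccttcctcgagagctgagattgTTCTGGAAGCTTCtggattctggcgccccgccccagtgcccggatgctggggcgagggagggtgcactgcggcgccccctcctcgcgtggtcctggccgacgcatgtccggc
HSP90AA1, start 1 of 2, chr14:102139750-102139999, minus strand: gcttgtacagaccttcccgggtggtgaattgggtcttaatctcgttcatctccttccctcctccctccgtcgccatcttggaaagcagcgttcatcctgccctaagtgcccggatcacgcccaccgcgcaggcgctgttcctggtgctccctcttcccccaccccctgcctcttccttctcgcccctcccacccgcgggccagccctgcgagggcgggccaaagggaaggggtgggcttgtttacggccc
HSP90AA1, start 2 of 2, chr14:102087045-102087294, minus strand: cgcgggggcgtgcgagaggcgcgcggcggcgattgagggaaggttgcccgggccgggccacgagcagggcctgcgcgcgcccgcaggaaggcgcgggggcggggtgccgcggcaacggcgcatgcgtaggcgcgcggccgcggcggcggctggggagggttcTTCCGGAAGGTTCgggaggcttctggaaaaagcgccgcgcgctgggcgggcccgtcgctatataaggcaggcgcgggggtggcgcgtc
HSPB8, chr12:119178681-119178930, plus strand: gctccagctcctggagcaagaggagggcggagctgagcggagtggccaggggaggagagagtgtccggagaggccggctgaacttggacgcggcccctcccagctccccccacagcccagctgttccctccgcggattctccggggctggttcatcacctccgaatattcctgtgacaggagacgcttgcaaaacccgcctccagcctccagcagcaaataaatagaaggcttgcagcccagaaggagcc
CHORDC1 had 1 unbroken run of 5 alternating units, GAAAATTCGCGAAGGTTCCTGAA, whose first base is at position -60, counting the start base as 0. HSPA8 had 2 separate 3-unit elements, beginning at positions -230 and -55, and start 3 of HSP90AB1 also had 2, at -165 and -112. The windows of starts 1 and 2 of HSP90AB1 held no match. HSP90AA1 had 1 element, at -88 from start 2, and none in the window of start 1. HSPB8 had only 2-unit cores, 1 of them before the start, and is shown as a gene without the 3-unit element. In all, 4 of the 8 genes held the 3-unit element and 7 of the 8 a 2-unit core, in at least 1 window. Of the 27305 genes with a window, 0.608% and 16.2% did. Counted by window and not by gene, the shares were 0.490% and 13.5% of all 35116 windows. A gene with several windows has more room for a match. HSPH1 held neither, and DNAJB1, HSPB1 and HSPB8 held the core GAANNTTC but not TTCNNGAA. A match is a description of these letters, and binding of HSF1 was not measured here.

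**Figure D1:**
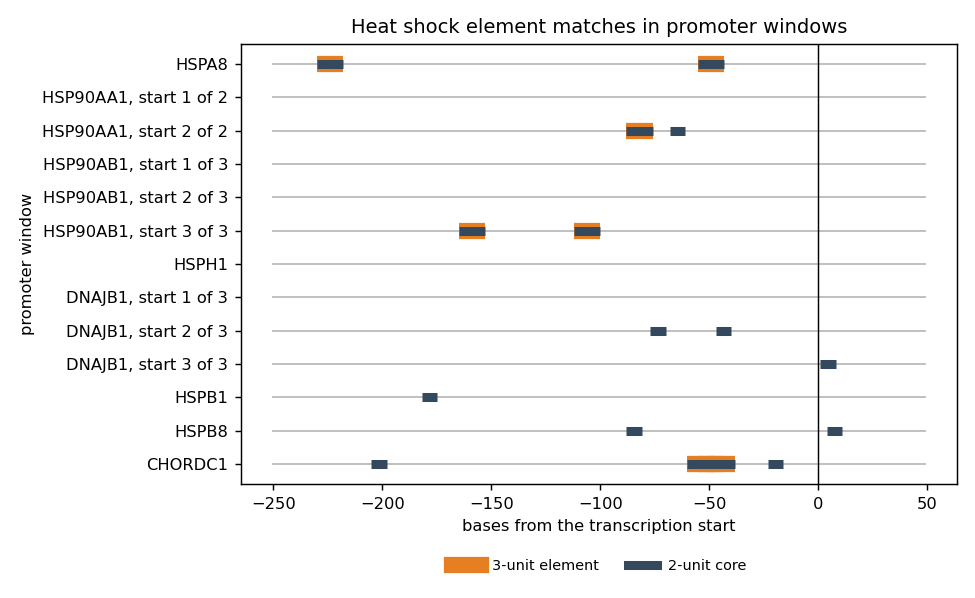
Positions of heat shock element matches in the 13 RefSeq promoter windows, in bases from the transcription start (vertical line); thick orange bars are 3-unit elements and dark bars, also drawn over them, 2-unit cores. The run in CHORDC1 and the elements of HSPA8, HSP90AB1 (start 3) and HSP90AA1 (start 2) stand out, and HSPH1 has no match.

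The arrays matched their labels. MRPL35 read at most 6.56 in KD and at least 8.05 in NC, a log2 change of -1.69 ± 0.096 (standard error). Across genes, each at its brightest probe set, Pearson's r was 0.997 to 0.998 between KD arrays and 0.976 to 0.980 between groups. NC replicate 2 stood apart from the other NC arrays, with which it correlated at 0.994 and 0.995, while they correlated at 0.998 with each other. The source name of NC replicates 2 and 3 gives another cell line number than their characteristics, which name A549. Of 5 epithelial markers, the keratins KRT18 (13.34 to 13.95) and KRT8 (12.99 to 13.47) read highest and EPCAM lowest (5.69 to 6.26). Of these 5, 4 passed as higher in KD, against 17.6% of all genes. The 6 alveolar type II markers read 3.01 to 8.88 in KD and 2.84 to 7.86 in NC. Among them ABCA3 passed as higher in KD (1.14 ± 0.084, limma adjusted p = 1.54e-05), and the other 5 did not pass. The 4 fibroblast markers read 3.13 to 5.25 and the 3 endothelial ones 3.98 to 5.59, among them COL1A1 (4.75 to 5.25) and PECAM1 (5.16 to 5.47), and limma called none of either list, nor did any reach an unadjusted p under 0.05. Of 4 leukocyte markers PTPRC read 2.33 to 2.62 and CD68 6.82 to 7.08, and CD14 passed as higher in KD (0.60 ± 0.11, limma adjusted p = 0.00293). The part of other cells in the results was not tested. Of the 10 proliferation genes listed, 10 passed as lower in KD, against 15.9% of all genes, with a median log2 change of -1.56. The part of slower division in the changes below was not tested. For RNA integrity, the 3′ minus the 5′ probe set of ACTB gave 0.63 ± 0.044 over KD and 0.58 ± 0.082 over NC (log2, SD, n = 3). That of GAPDH gave 0.086 ± 0.035 over KD and 0.012 ± 0.050 over NC, and the part of RNA quality in the results was not tested.

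In the knockdown cells 2 of the 10 genes were higher and 4 were lower, and 4 did not pass the test, on the brightest probe set of each gene (limma, adjusted p under 0.05 over all genes). Over all genes tested 17.6% were higher and 15.9% lower by the same rule, 33.5% in either direction. CRYAB and HSPB8, both small heat shock proteins, rose, and CHORDC1, HSPH1, HSP90AB1 and HSF1 fell. Only CRYAB and CHORDC1 changed at least 2-fold, a size that 5.36% of all genes reached. The median log2 change of the 10 genes was -0.25, against -0.018 over all genes. In all 10 genes the KD arrays lay entirely above or below the NC arrays, which was so for 44.7% of all genes.

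**Figure D2:**
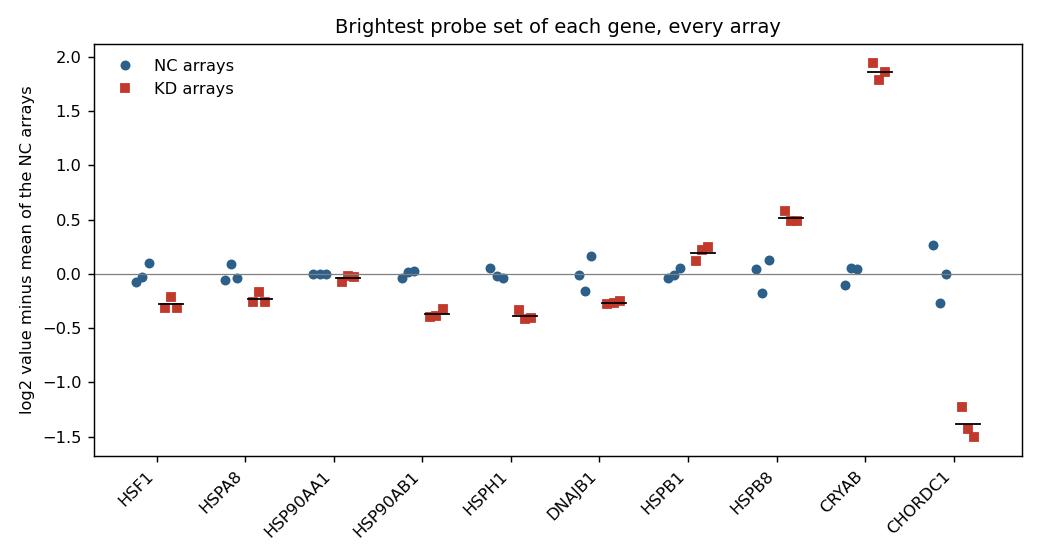
Log2 value of each gene's brightest probe set in every array, less the mean of the 3 NC arrays; blue circles are NC arrays, red squares KD arrays, and the black line is the KD mean. CRYAB lies 1.86 above and CHORDC1 1.39 below the NC mean, and the other 8 genes lie within about 1.43-fold of it.

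HSF1 had 1 probe set, which by its suffix can hybridise to several transcripts. It read 7.21, 7.31 and 7.21 in the KD arrays, and 7.45, 7.49 and 7.62 in the NC arrays, each in the order of the replicate numbers, as below. The highest KD array was below the lowest NC array by less than the range within NC. HSF1 fell by 0.28 on the log2 scale, to 82.4% of the control level (standard error 0.082, limma adjusted p = 0.0282). HSF1 lost its call in 4 of the 6 fits that left out 1 array: the limma adjusted p was 0.0957, 0.0512 and 0.107 without KD replicates 1, 2 and 3 in turn, and 0.0823 without NC replicate 3. It still passed without NC replicate 1 (0.0377) or NC replicate 2 (0.0252). Since HSF1 acts through trimer formation and phosphorylation, these values describe its transcript only.

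Among the HSP70 system, HSPA8, the abundant constitutive HSP70 of the cytosol, was slightly lower in most of its probe sets. Its brightest probe set read 12.99, 13.09 and 13.00 in the KD arrays and 13.20, 13.35 and 13.22 in the NC arrays. The groups were apart, yet the log2 change of -0.23 ± 0.081 missed the threshold (limma adjusted p = 0.0594). Of its 7 probe sets, 4 passed as lower when tested over all probe sets, of which 14.1% passed as lower. The log2 changes of the 7 ran from -0.72 to -0.15, and the largest belonged to a dim probe set. Leaving out KD replicate 1 or 3 brought the number that passed to 2, leaving out KD replicate 2 or NC replicate 3 to 1, and leaving out NC replicate 1 to 0. Several of these probe sets have suffixes that mark possible cross-hybridisation, and probe sets of 1 gene share their RNA and are not replicates.

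DNAJB1, the heat-inducible J-domain partner of HSP70, read 9.61, 9.62 and 9.64 in KD and 9.88, 9.73 and 10.06 in NC. Its KD arrays were close together and its NC arrays wide apart, with NC replicate 2 nearest to KD. The log2 change of -0.27 ± 0.096 did not pass (limma adjusted p = 0.0632). Without NC replicate 2 it was -0.35 and passed (limma adjusted p = 0.00929). The other 2 probe sets, with log2 changes of -0.13 and -0.22, did not pass either, but 2 of the 3 did without NC replicate 2. HSPH1, the HSP110 protein that exchanges nucleotide on HSP70, read 10.32, 10.23 and 10.25 in KD and 10.71, 10.63 and 10.61 in NC on its brightest probe set. All 3 KD arrays lay below the NC arrays, and HSPH1 fell by 0.38 on the log2 scale (standard error 0.076, limma adjusted p = 0.00377). This rests on 1 of its 8 probe sets. The others had log2 changes of -0.29 to -0.017 and did not pass, and 6 of the 8 overlapped between the groups. With NC replicate 2 left out, 3 of the 8 passed as lower. The mean of the 8 differed by -0.18 and did not pass (limma adjusted p = 0.160).

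CHORDC1, also called morgana, a zinc-binding co-chaperone of HSP90, showed the largest fall of the 10. It read 7.27, 7.08 and 6.996 in KD and 8.77, 8.24 and 8.50 in NC on its brightest probe set. The arrays of the groups were far apart, with NC replicate 2 the lowest of the controls. CHORDC1 fell by 1.39 on the log2 scale, to 38.3% of the control level (standard error 0.14, limma adjusted p = 7.82e-05), and 270 of 18244 genes had a larger fall. Its 5 probe sets all passed as lower, with log2 changes between -1.79 and -1.21. A further probe set, annotated to CHORDC1 and its pseudogene CHORDC1P4 together, changed by -1.38. The gene thus fell wherever its transcript was read. Its promoter is the one with the run of 5 units printed above, and a link between that run and the fall was not tested.

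**Figure D3:**
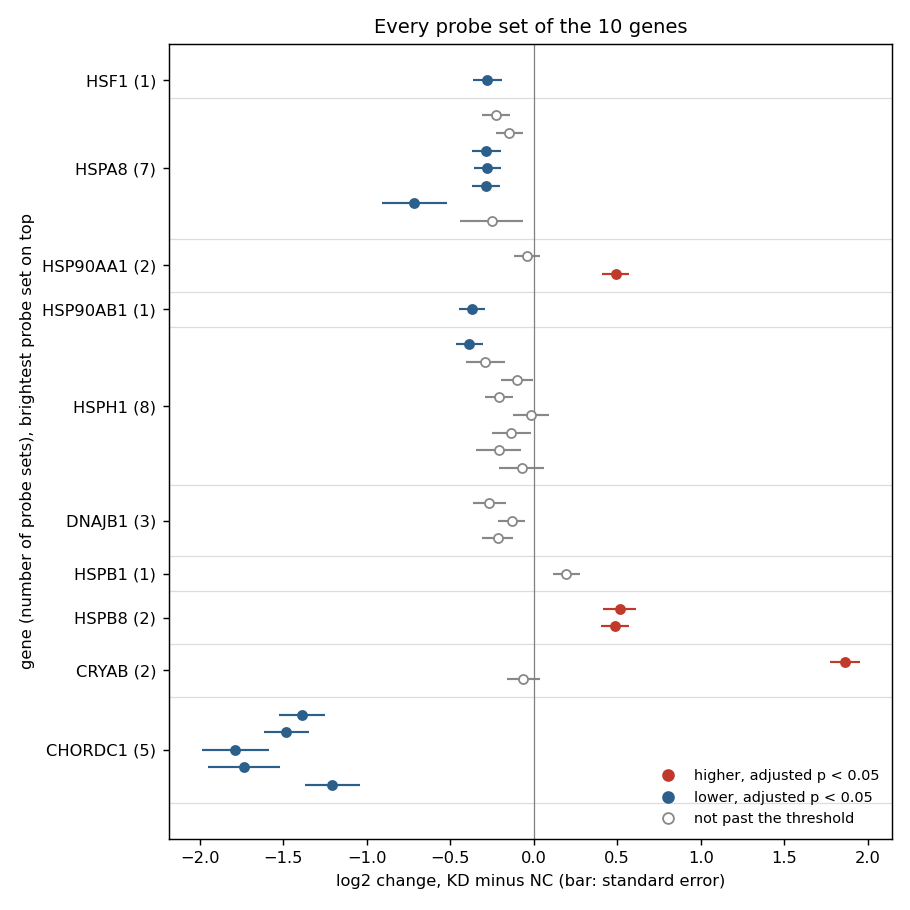
Log2 change (KD minus NC, horizontal axis) with its standard error for all 32 probe sets, grouped by gene with the brightest on top; filled points passed the limma test over all probe sets and open points did not. The 5 probe sets of CHORDC1 lie together far to the left, those of HSPB8 together on the right, and those of HSP90AA1 and of CRYAB disagree.

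Of the cytosolic HSP90 genes, HSP90AB1 passed as lower on its brightest probe set and HSP90AA1 did not. HSP90AB1, the constitutive form, read 11.84, 11.85 and 11.91 in KD and 12.20, 12.25 and 12.26 in NC. Every KD array was lower by more than the spread within either group, and HSP90AB1 fell by 0.37 in log2 units (standard error 0.074, limma adjusted p = 0.00404). A second probe set, annotated to HSP90AB1 and the pseudogene HSP90AB3P together, also changed by -0.37. HSP90AA1, the stress-inducible form, read 11.94, 12.01 and 11.99 in KD and 12.03, 12.03 and 12.02 in NC on its brighter probe set. The KD arrays lay below the NC arrays by a margin smaller than the range within KD. Its log2 change was -0.042 with a 95% interval of -0.21 to 0.12, and it did not pass (limma adjusted p = 0.730).

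The dimmer probe set of HSP90AA1 went the other way. It read 9.62, 9.64 and 9.63 in KD and 9.18, 9.05 and 9.18 in NC. The KD arrays were all higher, by 0.49 ± 0.081 on the log2 scale (limma over all probe sets, adjusted p = 0.00151). The platform annotation ties this probe set to the RefSeq transcript of the longer isoform. Within each array the dimmer minus the brighter probe set was -2.35 ± 0.024 in log2 units over KD and -2.88 ± 0.078 over NC (SD, n = 3), which shows unequal change and not which probe set reads the gene as a whole. A probe set annotated to HSP90AA1 together with 2 pseudogenes differed by -0.23 and did not pass. Which of the 2 starts printed above gave the RNA on each probe set was not tested.

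**Figure D4:**
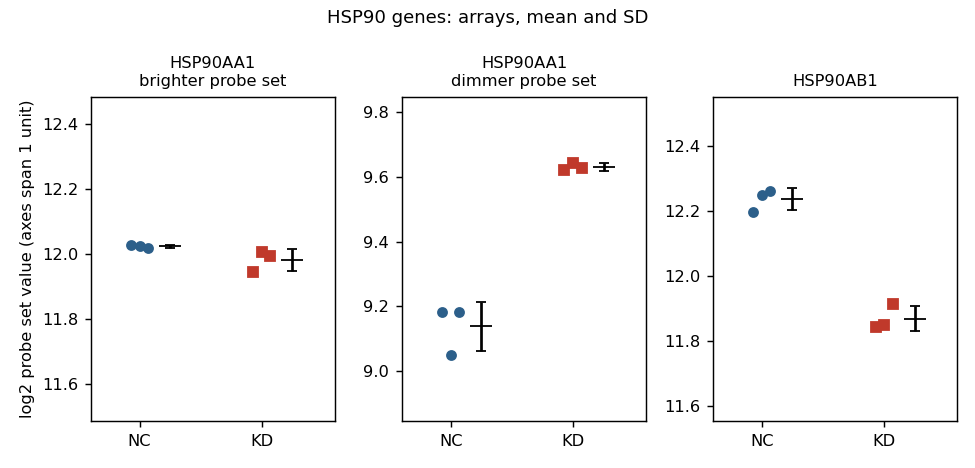
Log2 values of the HSP90 probe sets in each array (blue circles NC, red squares KD) with the group mean and SD beside them; each vertical axis spans 1 log2 unit. The brighter HSP90AA1 probe set is nearly level, the dimmer one is higher by 0.49 and HSP90AB1 is lower by 0.37 in KD.

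The small heat shock proteins held both of the genes that rose. CRYAB, alpha B-crystallin, a lens and muscle protein also made under stress elsewhere, read 7.69, 7.53 and 7.60 in KD and 5.64, 5.80 and 5.79 in NC. Every KD array was more than 1 log2 unit above every NC array. CRYAB rose by 1.86 on the log2 scale (standard error 0.084, limma adjusted p = 1.60e-06), which is 3.64-fold, and 36 of 18244 genes had a larger rise. Its other probe set was dim, from 2.87 to 3.15 over the 6 arrays, and did not pass (-0.061), and the mean of both changed by 0.90. Among genes on the same RefSeq map, HSPB2, itself a small heat shock protein, lies inside the span of CRYAB and read 7.19 in KD and 7.24 in NC on average, a difference of -0.050 that did not pass (limma adjusted p = 0.770).

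HSPB8, which works with BAG3 in the removal of misfolded proteins by autophagy, read 8.64, 8.54 and 8.54 in KD and 8.11, 7.89 and 8.19 in NC. The groups did not overlap, and HSPB8 rose by 0.51 on the log2 scale (standard error 0.096, 1.43-fold, limma adjusted p = 0.00278). Its second probe set rose by 0.49, and both of its 2 probe sets passed. HSPB1, known as HSP27, the widely expressed small heat shock protein that also steadies actin filaments, read 11.82, 11.91 and 11.94 in KD and 11.66, 11.68 and 11.75 in NC. Its KD arrays were all above its NC arrays, but the log2 change of 0.19 ± 0.077 did not pass (limma adjusted p = 0.0906). It has 1 probe set, with a cross-hybridisation suffix.

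Differences between related genes were also taken within each array, which removes anything that shifts a whole array. HSP90AA1 minus HSP90AB1, on the brightest probe sets, was 0.11 ± 0.040 in KD and -0.21 ± 0.038 in NC (log2, SD, n = 3 each), so that it moved by 0.33. CRYAB moved by 1.67 relative to HSPB1 and by 1.35 relative to HSPB8, and HSPB1 by -0.32 relative to HSPB8. With the mean of each gene's probe sets the CRYAB pairs moved by 0.71 and 0.40 and the HSP90 pair by 0.59, and without x and s probe sets the HSP90 pair moved by 0.86. In all 4 pairs the KD arrays lay wholly on 1 side of the NC arrays. The exact two-sided permutation test gave p = 0.10 for each, also after Benjamini-Hochberg adjustment over the 4 pairs, which is the smallest p that 3 against 3 arrays allow.

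Over every probe set of the 10 genes, 4 of 32 passed as higher and 12 as lower, against 16.5% and 14.1% of all probe sets and 30.6% in either direction. The signs were 5 positive and 27 negative, and the median log2 change over all probe sets was -0.0080. Of the negative ones, 8 belonged to HSPH1, 7 to HSPA8 and 5 to CHORDC1, and probe sets of 1 gene are not replicates. By gene, on the brightest probe sets, 7 were below and 3 above the control. In 24 of the 32 the groups did not overlap, as in 42.5% of all probe sets, and 6 of the 32 differed at least 2-fold, as did 4.72% of all. Of the 12 lower ones, 5 belonged to CHORDC1 and 4 to HSPA8. As a description of pattern, the genes whose 6 values followed CRYAB most closely among the 9122 brighter genes were ARL2BP, C2orf76 and DTX4 (Pearson's r of 0.999 for each), and those for CHORDC1 were SSR1, ISCA1 and SNAPC1 (0.999 each). Since 336 genes exceeded an r of 0.99 with CRYAB and 142 with CHORDC1 over these 2 groups of 3 arrays, such likeness mostly repeats the difference between the groups.

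The wider heat shock and co-chaperone network, listed by role but with earlier results of these data known, held calls in both directions. Of 67 measured genes in 7 lists, 11 were higher and 16 lower, with a median log2 change of -0.11, and over all genes 17.6% were higher and 15.9% lower. Without x and s probe sets the counts were 14 higher and 8 lower of 55, from fewer genes. In that fit 5255 of 16772 genes were called, 53.8% of them higher. The counts of each list below stand beside the 33.5% of all genes called in either direction, and a share near it is no result about the list. The number lower was 10 without KD replicate 3. Among 18 genes for HSP90 co-chaperones, 7 passed as lower and 3 as higher (median -0.12). Without x and s probe sets this list had 3 lower and 3 higher of 14. PPID, a cyclophilin (-0.94 ± 0.093), and STIP1, or HOP, which links HSP70 to HSP90 (-0.92 ± 0.084), fell, and STUB1, the ubiquitin ligase CHIP, rose (0.90 ± 0.11). STIP1 fell on both of its probe sets, and PPID and STUB1 have 1 each.

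Among 11 other HSP70 and HSP110 genes, 3 rose and 1 fell, with a median of -0.11, a share near that of all genes. HSPA4L, of the HSP110 group (0.75 ± 0.12), HSPA2, best known from the testis (0.70 ± 0.080), and HSPA12A (0.54 ± 0.090) rose. HSPA14 alone fell (-0.29 ± 0.080), a call lost when any 1 of the KD arrays or NC replicate 1 was left out. The strongly heat-inducible HSPA1A and HSPA1B, near-identical genes whose probe sets cannot be told apart with confidence, differed by -0.19 and -0.11 and did not pass. Together with the probe sets annotated to both, 5 probe sets read them, of which limma called 0, also 0 at an unadjusted p under 0.05.

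J-domain genes other than DNAJB1 had 4 of 14 lower and 2 higher, with a median of -0.14, and 2 lower and 5 higher of 11 without x and s probe sets. DNAJC9, a chaperone of histones, fell by 1.25 on the log2 scale on its bright probe set, while its 3 dim ones did not pass. DNAJC2, which works at the ribosome, fell (-0.48 ± 0.073). DNAJB6 gave opposite answers by probe set: the brightest fell (-0.64 ± 0.074) and the other 3 rose, by 1.54 to 1.59. Of these 3, 2 held the same values as each other in every array. Exchange factors of HSP70 had 1 of 7 higher and 1 lower: BAG1 rose on all 4 of its probe sets (0.91 ± 0.073), and HSPBP1 fell (-0.26 ± 0.079), a call lost when any 1 of the KD arrays or NC replicate 3 was left out. Without NC replicate 2 the falls numbered 2. BAG3, the heat-inducible partner of HSPB8, read 9.26 on average in both groups, a difference of 0.00017 with a standard error of 0.0998.

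In the HSF family list 1 of 5 rose and 1 fell. HSBP1L1, a relative of the HSF1-binding protein HSBP1, rose (1.04 ± 0.11), and HSF2BP, a meiotic protein first found as a partner of HSF2, fell (-0.34 ± 0.091), a call lost without KD replicate 2 or 3 or NC replicate 3. The 6 other small heat shock protein genes, mostly dim, had 0 called in either direction by limma, and 0 at an unadjusted p under 0.05. Of 14 other heat-inducible targets of HSF1, 5 fell and 2 rose, with a median of -0.19. The falls numbered 3 without KD replicate 1 or 3. Without x and s probe sets 2 fell and 2 rose of 8. DEDD2 (0.48 ± 0.084) and HSPA4L rose, and STIP1 changed most among those that fell. These lists overlap in HSPA4L, STIP1 and other genes, and were described by counts and medians with no test of the list.

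**Figure D5:**
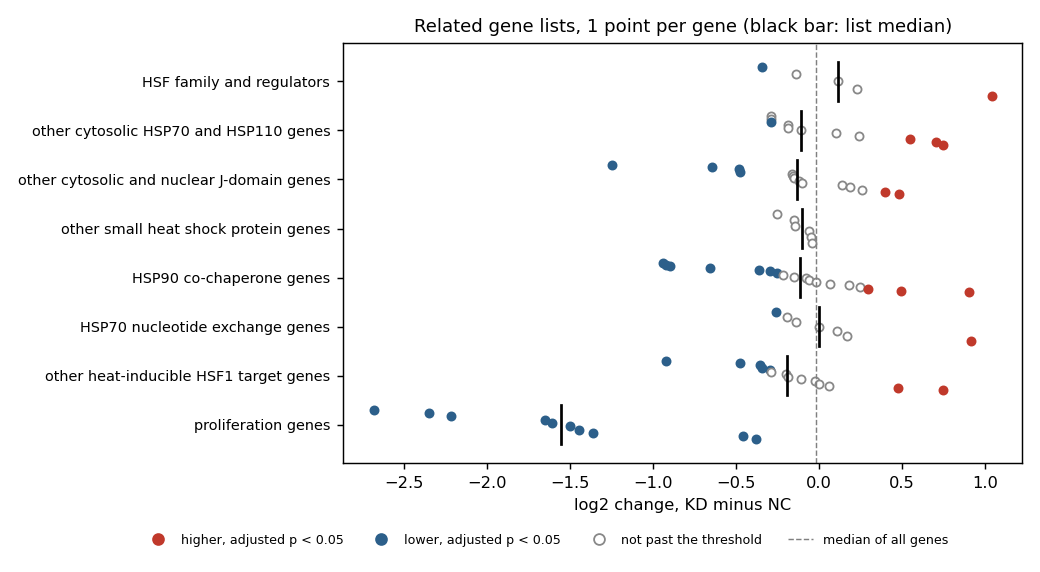
Log2 change (KD minus NC) of each gene in the related lists and the proliferation list; red points passed as higher, blue as lower, open points did not pass, black bars are list medians and the dashed line is the median of all genes. Medians of the 7 chaperone lists lie between -0.19 and 0.12, while that of the proliferation genes is -1.56.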

How the data were processed

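The authors' deposited table holds values of 49395 probe sets on 6 Affymetrix arrays, used here as log2 values; the log base was taken from their range (2.05 to 14.3). The authors' summarisation and normalization are not given in the sources used here. Per the labels' protocols, 6 ug of total RNA, extracted with Trizol, went into biotin labelling. Leaving out 102 control probe sets, 45278 had 1 symbol in the platform annotation. Each of 18244 genes was represented by its brightest such probe set, and groups were compared with limma 3.58.1, run under R 4.3.3, by lmFit and eBayes (two-sided, only group in the model, 4 residual and 4.67 prior degrees of freedom, Benjamini-Hochberg over all genes, threshold 0.05). A second fit took all 49293 probe sets, with its own adjusted p-values. Standard errors are limma's. Precision is limited by having 3 arrays a group.

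The 10 genes and the lists were chosen with earlier results of these data known. Named are all 10, MRPL35, 5 cell type markers, up to 3 genes per list with the largest change among those that passed without overlap between groups, and the 3 genes most like the largest rise and the largest fall; other names were chosen after their values were seen. Within-array differences were tested by exact permutation over arrays. Steps were tested on simulated data. Same-numbered KD and NC arrays deviated from their group means with correlations of 0.25, 0.26 and -0.096, so the numbers were not taken as pairs. Promoter sequences are RefSeq's. Figures were drawn with matplotlib 3.10.9.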

Additional observations from a re-analysis of the deposited data

How the results depend on the processing

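Alternatives concerned scaling (quantile, median), limma's options (trend with robust fitting, array weights, a replicate block), probe sets (their mean per gene, none with x or s suffixes), dim genes left out, p-values adjusted over all probe sets, and each array left out. CRYAB, HSPB8, CHORDC1 and HSP90AB1 kept their direction and call under every one. HSP90AA1 turned to 0.22 with the mean of its probe sets and to 0.49 without x and s probe sets, by the choice of probe set. HSPH1 no longer passed with those same settings (-0.18 and -0.10). HSPA8 passed with median centring (-0.25), trend and robust fitting (-0.23), the mean of probe sets (-0.31) and dim genes left out (-0.23). DNAJB1 passed with quantile normalization (-0.28), trend and robust fitting (-0.27), array weights (-0.30) and dim genes left out (-0.27), and HSPB1 with trend and robust fitting (0.19), array weights (0.21) and dim genes left out (0.19). The cause was not tested. Without x and s probe sets, 3 of the 8 genes with a value were higher and 2 lower, in place of 2 and 4 of 10. Of 55 related genes 14 were higher and 8 lower, in place of 11 and 16 of 67. In that setting 5255 of 16772 genes passed, 53.8% of them higher, against 6110 of 18244 and 52.5% in the main fit. Genes with only x and s probe sets dropped out, HSF1 and HSPB1 among them, so these counts come from unlike sets of genes. DNAJB6 turned to 1.01 with the mean of its probe sets and 1.54 without x and s probe sets. Leaving out 1 array gave log2 changes of -0.31 to -0.23 for HSF1 and -0.35 to -0.18 for DNAJB1, 3 to 5 genes lower, 2 higher, and 10 to 20 related genes lower. With the replicate number as a block, HSF1 was at -0.28 (limma adjusted p = 0.0403), 6276 genes passed in place of 6110, and the 10 genes kept their calls; by deviations from the group means, KD replicates 1 and 3 did not correlate best with the NC array of their own number. Scanner files were not used, so signal over background is unknown.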

Other observations

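The probe sets of DNAJB6, a J-domain protein that keeps aggregation-prone proteins soluble, passed in opposite directions. Its brightest, which by its suffix can hybridise to several transcripts, read 9.27, 9.25 and 9.25 in KD and 9.87, 9.86 and 9.96 in NC. A second probe set read 8.34, 8.06 and 8.11 in KD and 6.53, 6.55 and 6.68 in NC, 3.00-fold higher (limma over all probe sets, adjusted p = 6.45e-06). The remaining 2 probe sets held the same values as each other in all 6 arrays and were 2.91-fold higher in KD. Which transcripts each probe set reads was not tested.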
